A study of Mus musculus with 4 samples.

Results

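Coronary vascular endothelial cells line the capillaries, arteries and veins that form in the wall of the embryonic heart. They were described here in Drop-seq libraries, in which single cells are lysed in droplets and each captured mRNA molecule is counted once by its unique molecular identifier (UMI). A cell was taken as coronary when it held at least 500 UMIs, at most 20% mitochondrial UMIs, and under 1% of UMIs from the cardiomyocyte genes Tnnt2, Actc1, Myh6 and Myh7. It also needed UMIs of at least 2 of 7 coronary genes (Fabp4, Gpihbp1, Kcne3, Apln, Btnl9, Cldn5 and Tmem255a) and a UMI of Pecam1, Cdh5, Egfl7 or Ramp2. Last, it had to show more of the 7 coronary genes than of 7 endocardial genes (Npr3, Plvap, Adgrg6, Ednrb, Klhl4, Tmem100 and Cytl1). This rule found 469 cells among the 21495 cells that passed the UMI and mitochondrial filters, of 24849 deposited.

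The libraries came from mouse hearts at the embryonic stages E13.5 and E14.5 (days after conception). The mutant hearts, called LatsCKO, were Wt1 CreERT2/+; Lats1/2 F/F; Rosa26mTmG/+, and the control hearts were Wt1 CreERT2/+; Rosa26mTmG/+. Both genotypes therefore carried the tamoxifen-inducible Cre at Wt1, a gene of the epicardium, and the mTmG reporter, which switches from membrane Tomato to membrane GFP where Cre has acted. There was 1 library per genotype and stage, and the number of embryos in each is not given in the sources used here. Cre under Wt1 acts in the epicardium and its progeny, so the floxed genes are deleted in coronary cells only where these or their precursors expressed Cre.

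Coronary endothelium grows in the embryo from sprouts of the sinus venosus and of the endocardium, the inner lining of the heart, and first forms an immature capillary plexus that later sorts into arteries, capillaries and veins. Growth of the plexus is driven by VEGF from the surrounding myocardium and by apelin signals between endothelial cells. Mature heart capillaries take up fatty acids with the help of Fabp4, Cd36 and Gpihbp1. Lats1 and Lats2 are the kinases of the Hippo pathway that restrain the coactivators YAP and TAZ.

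The coronary cells numbered 147 in the LatsCKO library and 67 in the control library at E13.5, and 138 in the LatsCKO library and 117 in the control library at E14.5. Their median depth was 2378 UMIs in LatsCKO and 2943 UMIs in control cells at E13.5, and 1504.5 UMIs in LatsCKO and 1699 UMIs in control cells at E14.5. Summed over cells, the LatsCKO libraries held 603694 UMIs at E13.5 and 355558 at E14.5, and the control libraries 281846 at E13.5 and 336586 at E14.5. No coronary barcode occurred in more than 1 library. Levels are given as CPM, the UMIs of a gene scaled to 1000000 UMIs of the summed cells. Intervals are exact at 95% and cover counting error only, since each group is 1 library.

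Of the 469 cells, 135 showed exactly 2 of the 7 coronary genes and 13 showed all 7, and 147 had no UMI of the endocardial genes. Just outside the rule stood 146 cells with 1 coronary and no endocardial gene and 61 cells with equal numbers of both. Kdr, the main VEGF receptor, stood at 554 CPM in the members with exactly 2 coronary genes, against 137 CPM in the cells with 1 coronary gene and 624 CPM in the cells with equal numbers. Cdh11, a cadherin of mesenchyme and endocardium, stood at 88.8 CPM in the members with exactly 2 coronary genes, against 281 CPM in the cells with 1 coronary gene and 287 CPM in the cells with equal numbers. The edge of the rule thus lay between cells of like Kdr level on 1 side and of lower Kdr level on the other, and these values are a description.

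The label was checked against 15 general endothelial genes (Kdr, Flt1, Tie1, Tek, Emcn, Esam, Ecscr, Cd34, Eng, Robo4, Icam2, Clec14a, Sox7, Sox18 and Erg). Their summed level was 5296 CPM in LatsCKO and 5879 CPM in control coronary cells at E13.5, and 4739 CPM in LatsCKO and 4742 CPM in control coronary cells at E14.5. All 15 had UMIs in each of the 4 libraries. Markers of other cell types were low but present. The 5 lymphatic markers summed to 14.9 to 47.5 CPM and the 9 epicardial markers to 24.8 to 53.4 CPM, with Krt8 and Aldh1a2 at 0 throughout. Most of the epicardial sum was Wt1, the gene that drives the Cre. It was seen in 16 of 147 LatsCKO and 7 of 67 control coronary cells at E13.5 (28.2 and 24.8 CPM). At E14.5 it was seen in 12 of 138 LatsCKO and 11 of 117 control coronary cells (42.2 and 38.6 CPM). Whether these UMIs came from the coronary cells themselves was not tested. The 9 macrophage markers summed to 32.7 to 44.7 CPM, with C1qa at 0, and the 9 mural markers to 128 to 285 CPM. Markers of 3 other types varied more between libraries. The 9 further cardiomyocyte markers summed to 722 CPM in LatsCKO and 255 CPM in control cells at E13.5, and to 1010 CPM in LatsCKO and 1477 CPM in control cells at E14.5. The 8 fibroblast markers summed to 306 CPM in LatsCKO and 174 CPM in control cells at E13.5, and to 838 CPM in LatsCKO and 1028 CPM in control cells at E14.5. The 8 erythroid markers summed to 5301 CPM in LatsCKO and 954 CPM in control cells at E13.5, and to 7099 CPM in LatsCKO and 3123 CPM in control cells at E14.5. In all, 85 of the 469 cells held at least 2 genes of the mural, epicardial, fibroblast or macrophage list, or over 2% haemoglobin UMIs. Later checks without cells holding genes of other types used this count, which leaves out cardiomyocyte and endocardial genes. Without thinning, 218 of the 469 cells held at least 2 of the cardiomyocyte markers, and 118 at least 2 genes of a further endocardial list. Y-linked genes stood at 146 and 50.6 CPM in LatsCKO cells at E13.5 and E14.5, and at 160 CPM and 0 in control cells at E13.5 and E14.5. Over all kept cells of LatsCKO hearts they stood at 137 CPM at E13.5 and 76.8 CPM at E14.5. All kept cells of control hearts had 177 CPM at E13.5 and 1.75 CPM at E14.5, so the E14.5 control library held almost none. Y-linked content and genotype cannot be told apart at E14.5, and the part of Y-linked content in the results was not tested.

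The 7 coronary genes chose the cells, and their levels are given as a description. Fabp4, a cytosolic fatty acid carrier, stood at 5109 CPM in LatsCKO and 5248 CPM in control coronary cells at E13.5, and at 4739 CPM in LatsCKO and 4768 CPM in control coronary cells at E14.5. Gpihbp1, which anchors lipoprotein lipase to the capillary wall, stood at 432 CPM in LatsCKO and 426 CPM in control cells at E13.5, and at 565 CPM in LatsCKO and 431 CPM in control cells at E14.5. Fabp4 was close to level across the 4 libraries, and Gpihbp1 was highest in LatsCKO cells at E14.5. After every cell was thinned to 500 UMIs, Fabp4 was seen in 78.9% to 83.6% of coronary cells and in 2.61% to 4.88% of endocardial cells, which were gated by the mirrored rule (median depths of the endocardial cells 1077 to 2070 UMIs). Cldn5, a tight junction claudin, varied most of the 7 between the genotypes at E13.5, at 219 CPM in LatsCKO and 67.4 CPM in control cells at E13.5, and at 231 CPM in LatsCKO and 149 CPM in control cells at E14.5. Apln, the ligand of the apelin receptor made by sprouting cells, stood at 354 CPM in LatsCKO and 302 CPM in control cells at E13.5, and at 276 CPM in LatsCKO and 172 CPM in control cells at E14.5. Btnl9, a butyrophilin-like surface protein, stood at 247 CPM in LatsCKO cells at both stages, against 380 CPM in control cells at E13.5 and 309 CPM in control cells at E14.5. Kcne3, a potassium channel subunit, and Tmem255a, a transmembrane protein, lay between 205 and 436 CPM in every library.

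The coronary cells made up 2.49% of kept cells in the LatsCKO library (interval 2.10% to 2.91%) and 1.50% in the control library (1.16% to 1.90%) at E13.5. At E14.5 they made up 2.47% in the LatsCKO library (2.08% to 2.91%) and 2.13% in the control library (1.76% to 2.54%). The ratio of LatsCKO to control shares was 1.66 (1.24 to 2.25) at the earlier and 1.16 (0.900 to 1.50) at the later stage. With the rule applied to cells thinned to 500 UMIs the ratio was 1.51 (0.969 to 2.41) at the earlier and 1.14 (0.746 to 1.76) at the later stage. With 1 library per group these ratios have no replicate check.

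**Figure D1:**
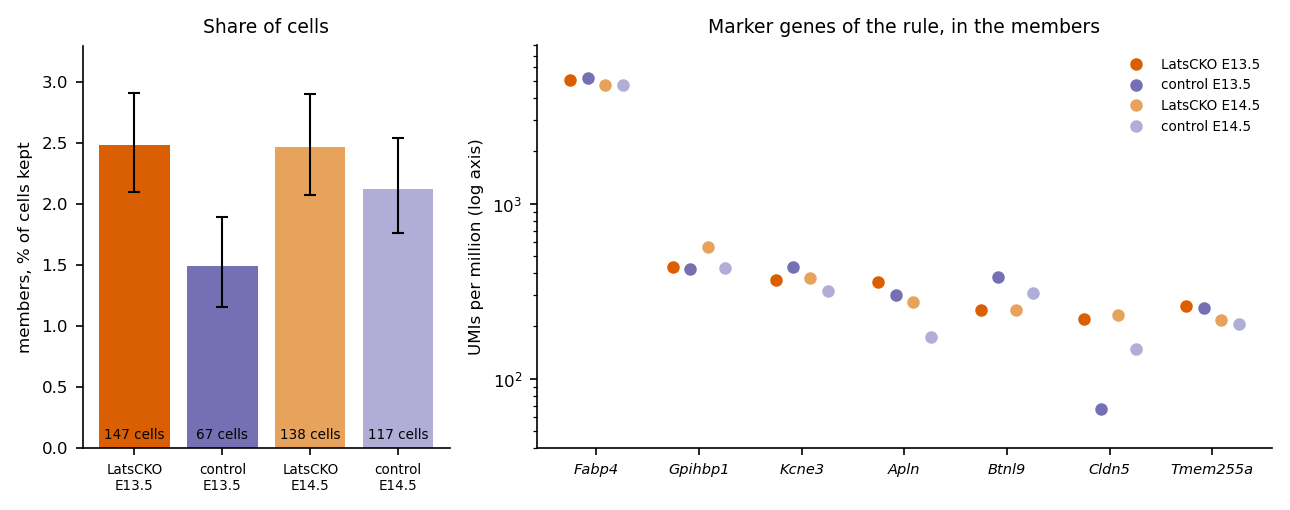
Left, coronary cells as a percentage of kept cells in each library, with exact 95% intervals of counting error and the number of cells; right, level of each of the 7 marker genes in the coronary cells on a log axis, 1 point per library. The E13.5 control share (1.50%) is the lowest of the 4, and Fabp4 lies between 4739 and 5248 CPM while Cldn5 is lowest in the E13.5 control (67.4).

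The coronary cells were set beside 2229 endocardial cells of the same libraries (837 in LatsCKO and 643 in control hearts at E13.5, 421 in LatsCKO and 328 in control hearts at E14.5). No test applies between these classes, because both were chosen by expression in the same cells. Over 6460 genes with enough UMIs, 148 genes (2.29%) were at least 1 log2 unit higher and 247 genes (3.82%) at least 1 log2 unit lower in coronary than endocardial cells in all 4 libraries, and the shares below are read against these. The 12 genes furthest above endocardial level in every library included ligands, receptors and matrix genes of growing vessels. Rgcc, a cell cycle regulator known as an endothelial gene of capillaries, stood at 156 CPM in LatsCKO and 167 CPM in control coronary cells at E13.5, and at 155 CPM in LatsCKO and 154 CPM in control coronary cells at E14.5. In endocardial cells Rgcc stood at 2.31 CPM in LatsCKO and 2.64 CPM in control hearts at E13.5, and at 0 in LatsCKO and 8.28 CPM in control hearts at E14.5. Against the limit of 3 UMIs per library, Rgcc was at least 37.1-fold higher in coronary cells in the E14.5 LatsCKO library.

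Esm1, a secreted proteoglycan of endothelial tip cells, stood at 89.4 CPM in LatsCKO and 153 CPM in control coronary cells at E13.5, and at 70.3 CPM in LatsCKO and 53.5 CPM in control coronary cells at E14.5, against 0 to 4.14 CPM in endocardial cells. Col15a1, a collagen of the basement membrane zone, stood at 139 CPM in LatsCKO and 95.8 CPM in control coronary cells at E13.5, and at 90.0 CPM in LatsCKO and 190 CPM in control coronary cells at E14.5, against 0 to 5.08 CPM in endocardial cells. Arhgap18, a GTPase-activating protein, stood at 434 CPM in LatsCKO and 426 CPM in control coronary cells at E13.5, and at 416 CPM in LatsCKO and 383 CPM in control coronary cells at E14.5, against 45.5 to 65.6 CPM in endocardial cells. Of these 4 genes, Arhgap18 and Rgcc were nearly level across libraries while Esm1 and Col15a1 varied between them, and no coronary library overlapped an endocardial one. The 250 bases before the start of these 4 genes are shown because the genes share this high level in coronary cells; they are RefSeq sequence of GRCm38.p6, with capitals marking AGGAA, the core of the sites bound by ETS factors, on either strand (TTCCT on the other).

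Rgcc chr14:79301636-79301885, minus strand: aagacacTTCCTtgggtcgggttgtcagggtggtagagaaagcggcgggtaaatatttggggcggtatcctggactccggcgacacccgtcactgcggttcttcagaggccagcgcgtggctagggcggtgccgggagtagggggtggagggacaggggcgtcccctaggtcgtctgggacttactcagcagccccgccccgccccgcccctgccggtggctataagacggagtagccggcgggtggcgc

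Esm1 chr13:113209409-113209658, plus strand: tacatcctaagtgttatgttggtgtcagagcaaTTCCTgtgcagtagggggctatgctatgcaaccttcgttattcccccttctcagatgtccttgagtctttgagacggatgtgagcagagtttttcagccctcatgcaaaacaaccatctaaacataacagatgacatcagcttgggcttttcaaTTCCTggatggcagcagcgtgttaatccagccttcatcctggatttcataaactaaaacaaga

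Arhgap18 chr10:26772262-26772511, plus strand: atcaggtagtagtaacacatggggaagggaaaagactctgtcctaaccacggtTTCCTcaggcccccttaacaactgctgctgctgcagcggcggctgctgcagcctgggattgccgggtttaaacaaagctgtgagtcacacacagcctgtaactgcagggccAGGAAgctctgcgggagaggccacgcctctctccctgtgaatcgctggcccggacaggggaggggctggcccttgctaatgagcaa

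Col15a1 chr4:47207762-47208011, plus strand: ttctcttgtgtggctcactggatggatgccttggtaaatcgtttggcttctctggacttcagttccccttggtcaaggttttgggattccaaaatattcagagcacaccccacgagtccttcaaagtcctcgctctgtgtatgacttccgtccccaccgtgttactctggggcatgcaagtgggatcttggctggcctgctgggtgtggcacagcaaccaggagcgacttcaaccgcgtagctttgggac

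The motif occurred 1 time before Rgcc, 2 times before Esm1 and before Arhgap18, and 0 times before Col15a1. Among the 12 genes furthest above endocardial level, 5 could be matched to a promoter window, and 4 of these 5 windows (80.0%) held AGGAA, against 60.3% of all 32851 windows. The match is a description of letters, and 5 windows are few.

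Sparcl1, a matricellular protein, stood at 926 CPM in LatsCKO and 1444 CPM in control coronary cells at E13.5, and at 1645 CPM in LatsCKO and 1800 CPM in control coronary cells at E14.5, against 59.1 to 172 CPM in endocardial cells. Aplnr, the receptor of apelin, stood at 149 CPM in LatsCKO and 124 CPM in control coronary cells at E13.5, and at 129 CPM in LatsCKO and 107 CPM in control coronary cells at E14.5, against 6.96 to 15.8 CPM in endocardial cells. Apelin and its receptor were thus both carried by the coronary cells, although Apln was one of the genes that chose them. Pdgfb, which recruits mural cells, stood at 104 CPM in LatsCKO and 81.6 CPM in control coronary cells at E13.5, and at 121 CPM in LatsCKO and 140 CPM in control coronary cells at E14.5, against 8.35 to 13.2 CPM in endocardial cells. The other genes of this group were Plau, the urokinase protease, the surface protein Cd109, N4bp3, the protocadherin Pcdh1, and the joined locus Gm28045_Prnd, whose reads cannot be assigned to either gene. Their log2 ratios to endocardial cells lay between 2.56 and 6.78.

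The 11 genes furthest below endocardial level were Smoc1, Col23a1, Tmem108, Col13a1, Dpp4, Bace2, Cdh11, Cpe, Prr15, Irx5 and Plxnc1. Cdh11 stood at 29.8 CPM in LatsCKO and 39.0 CPM in control coronary cells at E13.5, and at 42.2 CPM in LatsCKO and 32.7 CPM in control coronary cells at E14.5, against 782 to 1293 CPM in endocardial cells. Smoc1, a matricellular protein, had 2 UMIs in LatsCKO coronary cells at E13.5 and 1 UMI in control coronary cells at E14.5 and none in the other two libraries, against 114 to 148 CPM in endocardial cells. Dpp4, a surface peptidase, had 7 UMIs in LatsCKO coronary cells at E13.5 and none in the other 3 libraries, against 132 to 276 CPM in endocardial cells. At the limit of 3 UMIs, Dpp4 was at least 14.9-fold lower in coronary than endocardial cells in the E14.5 control library. Igfbp3 stood at 1822 CPM in LatsCKO and 2069 CPM in control coronary cells at E13.5, and at 1550 CPM in LatsCKO and 585 CPM in control coronary cells at E14.5, against 119 to 153 CPM in endocardial cells. Igfbp5 stood at 353 CPM in LatsCKO and 131 CPM in control coronary cells at E13.5, and at 312 CPM in LatsCKO and 160 CPM in control coronary cells at E14.5, against 3131 to 3520 CPM in endocardial cells.

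**Figure D2:**
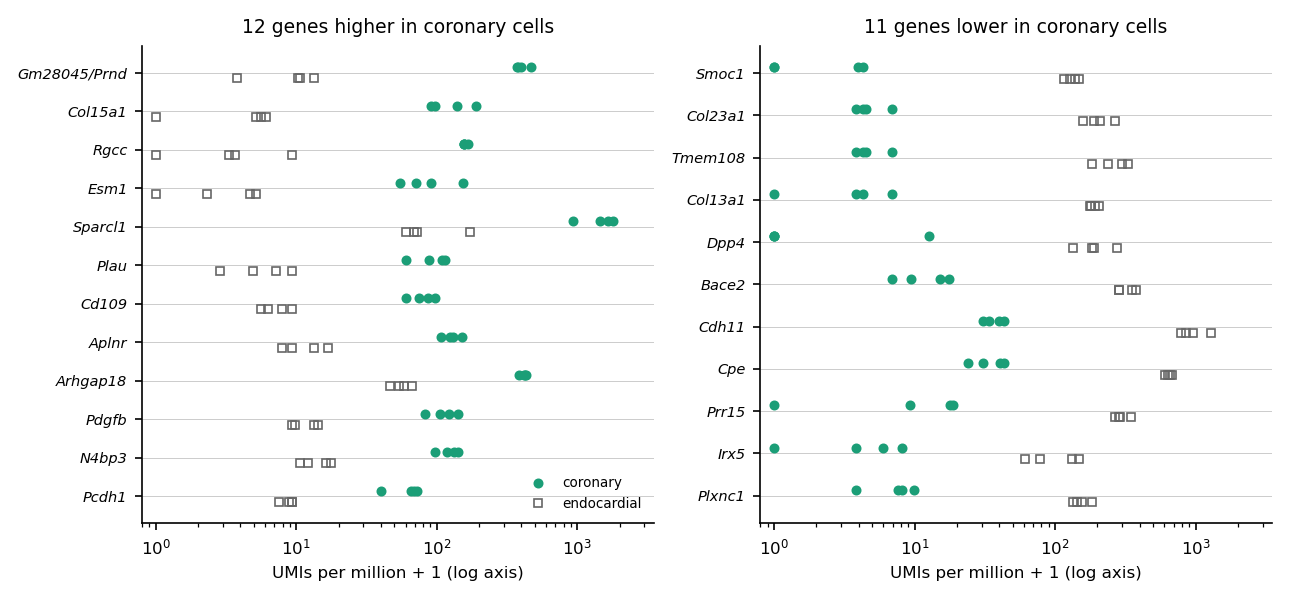
Level of the 12 genes furthest above (left) and the 11 furthest below (right) endocardial level, as CPM plus 1 on a log axis; filled circles are coronary cells and open squares endocardial cells, 1 point for each of 4 libraries. Coronary and endocardial points do not overlap for any gene shown, which is what their choice required, and Rgcc (154 to 167) and Arhgap18 (383 to 434) have the tightest coronary points among the genes described.

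Of the 9 genes on the capillary list, 7 were measured well enough for this comparison and 6 were at least 1 log2 unit higher in coronary cells in all 4 libraries. Cd36, a fatty acid translocase, stood at 326 CPM in both LatsCKO and control coronary cells at E13.5, and at 430 CPM in LatsCKO and 327 CPM in control coronary cells at E14.5, against 28.7 to 68.3 CPM in endocardial cells. Cav1, the coat protein of caveolae, stood at 1222 CPM in LatsCKO and 1653 CPM in control coronary cells at E13.5, and at 942 CPM in LatsCKO and 814 CPM in control coronary cells at E14.5, against 166 to 381 CPM in endocardial cells. Tcf15, a transcription factor of heart capillaries that acts with Meox2, stood at 86.2 to 160 CPM in coronary and 20.7 to 32.3 CPM in endocardial cells. Meox2 itself stood at 171 CPM in LatsCKO and 114 CPM in control coronary cells at E13.5, and at 121 CPM in LatsCKO and 50.5 CPM in control coronary cells at E14.5, against at most 1.39 CPM in endocardial cells. These 4 genes lay apart between the classes in every library. Fabp5, a sister carrier of Fabp4, was the exception on the list, at 1218 to 1332 CPM in coronary and 1537 to 1952 CPM in endocardial cells. Car4, a carbonic anhydrase of mature capillaries, had no UMI in coronary cells of any library.

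Glycolysis and hypoxia genes lay above endocardial level as a group: 10 of 15 measured genes were at least 1 log2 unit higher in coronary cells in all 4 libraries, and 0 were that much lower. Their median log2 ratio to endocardial cells was 1.64 in the LatsCKO and 1.75 in the control library at E13.5, and 1.35 in the LatsCKO and 1.32 in the control library at E14.5. Over all 6460 genes the medians lay between 0.03 and 0.07. The list summed to 5206 CPM in LatsCKO and 4460 CPM in control coronary cells at E13.5, and to 4494 CPM in LatsCKO and 3877 CPM in control coronary cells at E14.5, against 1381 to 1678 CPM in endocardial cells. The 10 genes were Ldha, Eno1, Pkm, Aldoa, Tpi1, Gpi1, Pfkl, Pgk1, Egln3 and Bnip3, and so included enzymes of most steps of glycolysis. Eno1, enolase, had log2 ratios between 1.96 and 2.06. Pkm, pyruvate kinase, stood at 890 CPM in LatsCKO and 919 CPM in control coronary cells at E13.5, and at 532 CPM in LatsCKO and 704 CPM in control coronary cells at E14.5, against 156 to 265 CPM in endocardial cells. Egln3, an oxygen-sensing prolyl hydroxylase induced by hypoxia, stood at 68.3 to 123 CPM in coronary and 21.1 to 34.2 CPM in endocardial cells. Ldha, Aldoa and Pgk1 have named pseudogene copies, among which the counting could have split reads.

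Ldha, lactate dehydrogenase, stood at 1368 CPM in LatsCKO and 1252 CPM in control coronary cells at E13.5, and at 1147 CPM in LatsCKO and 856 CPM in control coronary cells at E14.5, against 383 to 478 CPM in endocardial cells. Its upstream window with the most matches to ACGTG, read on either strand, the core of the hypoxia response element, is shown for this group, with the matches in capitals.

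Ldha chr7:46845554-46845803, plus strand: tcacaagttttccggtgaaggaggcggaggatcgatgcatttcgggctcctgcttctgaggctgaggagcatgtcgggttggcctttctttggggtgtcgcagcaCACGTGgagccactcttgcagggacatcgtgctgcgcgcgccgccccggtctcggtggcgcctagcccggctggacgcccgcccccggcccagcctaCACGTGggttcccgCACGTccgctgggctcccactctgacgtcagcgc

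The letters were found 5 times in this window, counting both strands of the 2 palindromic CACGTG runs. A window of another Ldha start held 0. Of the 16 windows of the 10 glycolysis and hypoxia genes, 7 (43.8%) held the motif, against 16.6% of all windows. Some of the 16 windows belong to the same gene, and the genes were chosen by their level in these data. All windows were not matched to them for base content, so the match is a description of letters.

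**Figure D3:**
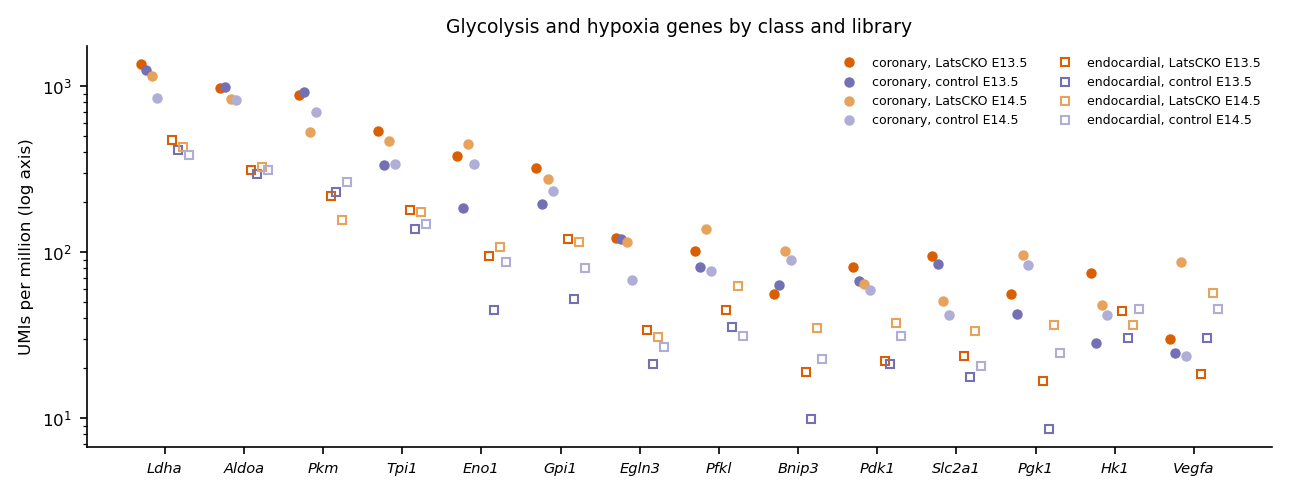
Level of glycolysis and hypoxia genes in CPM on a log axis, with filled marks for coronary and open marks for endocardial cells and 1 colour for each of the 4 libraries. For Ldha the coronary points lie between 856 and 1368 and the endocardial points between 383 and 478.

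Genes of sprouting and of vessel identity were examined next. Of the 8 tip and sprouting genes, 5 were measured and 4 were at least 1 log2 unit higher in coronary than endocardial cells throughout. They summed to 716 CPM in LatsCKO and 827 CPM in control coronary cells at E13.5, and to 686 CPM in LatsCKO and 550 CPM in control coronary cells at E14.5, against 89.0 to 137 CPM in endocardial cells. Among VEGF receptors, Kdr stood at 742 CPM in LatsCKO and 848 CPM in control coronary cells at E13.5, and at 638 CPM in LatsCKO and 674 CPM in control coronary cells at E14.5, against 296 to 423 CPM in endocardial cells. Flt1, a decoy receptor for VEGF, stood at 459 to 613 CPM in coronary and 343 to 466 CPM in endocardial cells, so that the ranges overlapped. Tek, the angiopoietin receptor, stood at 71.0 to 129 CPM in coronary and 428 to 545 CPM in endocardial cells. Of the 11 Notch genes, 7 were measured, 1 higher and 1 lower. The ligand Dll4 was higher, at 56.4 to 117 CPM in coronary and 18.1 to 27.7 CPM in endocardial cells. The ligand Dll1 had 4 UMIs over all coronary cells, against 41.4 to 52.8 CPM in endocardial cells. Of the 12 BMP and TGF-beta genes, all measured, 1 was higher (the receptor Acvrl1) and 2 lower (Smad6 and Id2). Id2, an inhibitor of DNA binding induced by BMP, stood at 75.9 to 124 CPM in coronary and 621 to 1008 CPM in endocardial cells.

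Arterial genes were mixed, with 3 of 9 measured genes higher (Dll4, Sox17 and Unc5b) and 1 lower (Bmx) by the same rule. Sox17, a transcription factor of arterial fate, stood at 200 CPM in LatsCKO and 280 CPM in control coronary cells at E13.5, and at 149 CPM in LatsCKO and 157 CPM in control coronary cells at E14.5, against 16.7 to 47.5 CPM in endocardial cells. Gja4, an arterial connexin, ran the other way, at 47.5 to 129 CPM in coronary and 112 to 243 CPM in endocardial cells. Venous genes were higher for 3 of 5, namely Nrp2, Aplnr and Flt4. Nr2f2, the nuclear receptor that sets venous fate, stood lower, at 79.5 to 121 CPM in coronary and 131 to 202 CPM in endocardial cells. Of the further endocardial genes, 5 of 6 measured were lower (Hapln1, Cgnl1, Gata4, Foxc1 and Ece1), and the endocardial ligand Nrg1 had no UMI in coronary cells. Nfatc1, a factor of the endocardium, was seen at 10.6 to 35.7 CPM in coronary and 69.6 to 111 CPM in endocardial cells. Basement membrane genes differed less: Nid2 alone of 13 measured passed the rule, at 146 to 266 CPM in coronary and 27.7 to 46.2 CPM in endocardial cells. Col4a1, a chain of collagen IV, stood at 1111 to 1555 CPM in coronary and 806 to 1027 CPM in endocardial cells.

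States within the coronary cells were counted after thinning every cell to 500 UMIs, as cells with UMIs of at least 2 genes of a list. G2 and M phase genes marked 42.9% of LatsCKO and 43.3% of control coronary cells at E13.5, and 39.9% of LatsCKO and 43.6% of control coronary cells at E14.5. In endocardial cells the share was 17.6% in LatsCKO and 16.5% in control hearts at E13.5, and 15.9% in LatsCKO and 18.0% in control hearts at E14.5. Over the libraries this came to 198 of 469 coronary cells (42.2%, interval 37.7% to 46.8%) and 379 of 2229 endocardial cells (17.0%, 15.5% to 18.6%), and without thinning to 70.8% of coronary and 31.3% of endocardial cells. S phase genes marked 29.9% of LatsCKO and 29.9% of control coronary cells at E13.5, and 15.9% of LatsCKO and 24.8% of control coronary cells at E14.5, against 10.9% to 16.3% of endocardial cells. Top2a, a topoisomerase of dividing cells, stood at 588 CPM in LatsCKO and 561 CPM in control coronary cells at E13.5, and at 644 CPM in LatsCKO and 532 CPM in control coronary cells at E14.5, against 337 to 372 CPM in endocardial cells. The G2 and M share lay above every endocardial value, while the S phase share of LatsCKO cells at E14.5 lay within the endocardial range. Over the 18 G2 and M genes the median log2 ratio to endocardial cells was 0.97 in the LatsCKO and 0.40 in the control library at E13.5, and 1.07 in the LatsCKO and 0.81 in the control library at E14.5. By the rule of 1 log2 unit in all 4 libraries, 1 of 18 G2 and M genes (Aurkb) and 1 of 14 S phase genes (Cdc6) were higher, and 0 lower.

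Arterial genes marked 12.2% of LatsCKO and 13.4% of control coronary cells at E13.5, and 12.3% of LatsCKO and 6.84% of control coronary cells at E14.5, against 4.88% to 6.38% of endocardial cells. Tip and sprouting genes marked 1.71% to 5.97% of coronary cells and 0 of 2229 endocardial cells. Venous genes marked 1.45% to 4.48% of coronary cells, a range that overlapped the endocardial one of 1.52% to 2.14%. Fibroblast genes marked 2.99% to 4.76% of coronary cells, below the 11.4% to 19.2% of endocardial cells. Cells without thinning were then split by their number of arterial or of G2 and M genes. The 133 coronary cells with at least 3 arterial genes had a median of 4071 UMIs, against 1493 UMIs in the 257 cells with at most 1, and the part of depth in that split was not tested. Aplnr stood at 105 CPM in the cells with at least 3 arterial genes and at 162 CPM in those with at most 1, while in the E13.5 LatsCKO library it stood at 153 CPM and 147 CPM.

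The 70 coronary cells with no G2 or M gene (median 1042 UMIs) were compared with the 279 cells with at least 3 (median 2566 UMIs). Gja4 stood at 405 CPM in the 70 cells with no G2 or M gene and at 52.6 CPM in the 279 cells with at least 3. Cxcl12, a chemokine of arterial endothelium, stood at 228 CPM in the 70 cells and at 30.8 CPM in the 279 cells, with 15 of its 22 UMIs in the 70 cells from the E13.5 LatsCKO library and none from the E14.5 control. Mecom, a transcription factor of arterial endothelium, stood at 228 CPM in the 70 cells and at 76.9 CPM in the 279 cells. Hey1 (145 CPM against 43.7 CPM) and Gja5 (114 CPM against 26.7 CPM) lay on the same side in these sums. Among cells with no G2 or M gene, Hey1 had no UMI in the 16 cells of the E14.5 control library. Gja5 had none in the 7 cells of the E13.5 control library. So few cells give no order for Hey1 or Gja5 in those libraries. For Gja4 the order was the same in each library, at 625 CPM against 78.4 CPM in LatsCKO and 299 CPM against 42.7 CPM in control cells at E13.5, and at 216 CPM against 38.9 CPM in LatsCKO and 215 CPM against 27.0 CPM in control cells at E14.5. In the cells with no G2 or M gene these levels rest on 27, 2, 6 and 4 UMIs in that order of libraries, and the part of depth was not tested. Fabp4 stood at 5099 CPM in the 70 cells and at 4957 CPM in the 279 cells, and so differed little between them.

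**Figure D4:**
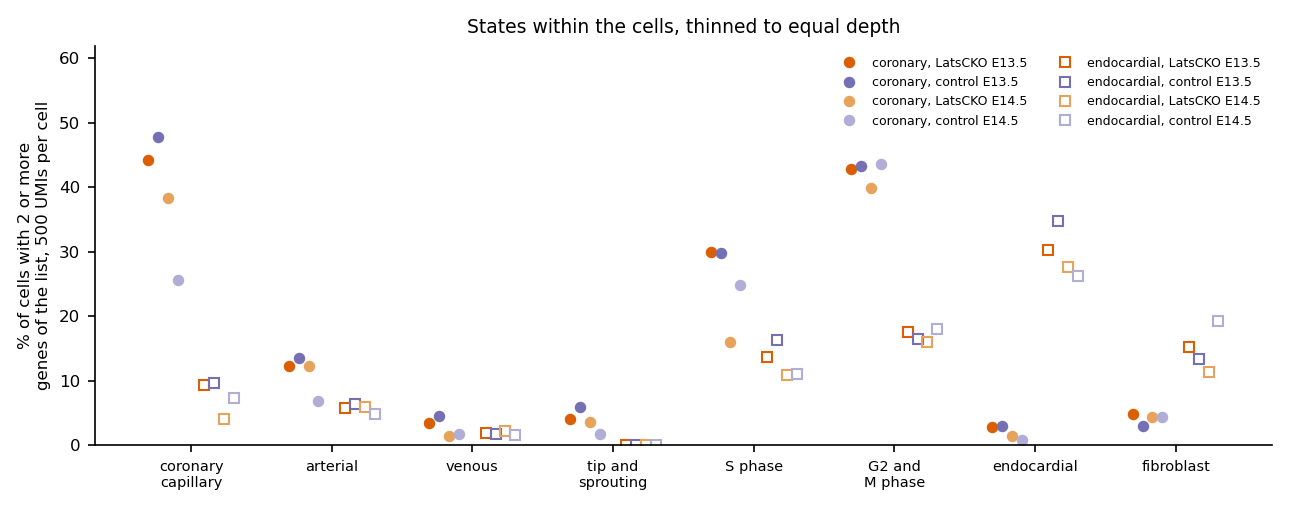
Percentage of cells, thinned to 500 UMIs each, with UMIs of at least 2 genes of a list; filled marks are coronary and open marks endocardial cells, 1 colour for each of the 4 libraries, without error bars. G2 and M genes mark 39.9% to 43.6% of coronary cells and 15.9% to 18.0% of endocardial cells.

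Whether the loss of Lats1 and Lats2 in the Wt1 lineage altered the coronary cells was asked with summed UMIs of the 4 libraries. The targeted genes and the reporter were checked first. Lats1 had 15 UMIs in LatsCKO and 6 in control coronary cells at E13.5, and 5 in LatsCKO and 3 in control coronary cells at E14.5. Lats2 had 14 UMIs in LatsCKO and 5 in control coronary cells at E13.5, and 12 in LatsCKO and 5 in control coronary cells at E14.5. These counts are of transcripts whose position relative to the floxed exons is not known, so they check no deletion. Egfp had 30 UMIs in 11 LatsCKO cells and 7 UMIs in 6 control cells at E13.5, and 36 UMIs in 10 LatsCKO cells and 7 UMIs in 7 control cells at E14.5. A single cell held 12 of the 30 and another 17 of the 36 UMIs in the LatsCKO libraries. After thinning, Egfp was seen in 2.72% of LatsCKO and 0 of 67 control coronary cells at E13.5, which allows up to 4.48% (3 of 67 cells), and in 1.45% of LatsCKO and 0.855% of control coronary cells at E14.5. Cells with 1% or more cardiomyocyte UMIs, which as background are mostly not of the Wt1 lineage, showed it in 1.07% of LatsCKO and 0.602% of control cells at E13.5, and in 0.705% of LatsCKO and 0.898% of control cells at E14.5. The coronary intervals covered these background shares, so recombined coronary cells were not detectable above background at this depth. Creert2 had 15 UMIs in LatsCKO and 0 in control cells at E13.5, and 10 in LatsCKO and 2 in control cells at E14.5.

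Few genes were called for genotype, in a test with 1 residual degree of freedom that cannot show how many changed. In edgeR's quasi-likelihood test with stage as a second term and Benjamini-Hochberg adjustment over 6295 genes, 4 genes (0.0635%) rose and 2 (0.0318%) fell in LatsCKO coronary cells. At an unadjusted p under 0.05 there were 157 higher and 131 lower, and DESeq2 called 4 higher and 2 lower. None of the 6 was on the endothelial lists. The pseudogene Rps13-ps1 stood at 406 CPM in LatsCKO and 3.55 CPM in control coronary cells at E13.5, and at 498 CPM in LatsCKO and 2.97 CPM in control coronary cells at E14.5. In endocardial cells it stood at 345 CPM in LatsCKO and 1.32 CPM in control hearts at E13.5, and at 388 CPM in LatsCKO and 2.07 CPM in control hearts at E14.5, so the shift was shared by both classes. Cells of 1% or more cardiomyocyte UMIs showed it too, at 317 CPM in LatsCKO and 3.69 CPM in control hearts at E13.5, and at 367 CPM in LatsCKO and 0.547 CPM in control hearts at E14.5. Whether reads of genes with copies were counted alike in the libraries was not tested. The pseudogenes Gm11942 and Rps15a-ps8 rose in the same way, and Gm17660_Gm43333 and RP23-174M4.2 fell, each with a shift of like direction in endocardial cells. The sixth, the adult haemoglobin gene Hba-a2, had 312 UMIs in LatsCKO and 15 in control coronary cells at E13.5, and 204 in LatsCKO and 65 in control coronary cells at E14.5. It is itself one of the summed erythroid markers given above, and 121 of the 312 UMIs and 111 of the 204 lay in 1 cell each. Without the cells holding genes of other types, Hba-a2 had 21 UMIs in LatsCKO and 5 in control cells at E13.5, and 31 in LatsCKO and 16 in control cells at E14.5.

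Leaving out genes with copies, a choice made after these calls were seen, 5242 genes were tested and 3 (0.0572%) rose and 1 (0.0191%) fell. Genes with copies were taken as pseudogenes, ribosomal protein genes, genes with a named pseudogene copy, joined names and names without 1 annotated locus. Haemoglobin genes were left out with them. Copies under unrelated names were not looked for. Igfbp5, a binding protein of insulin-like growth factors that was low in coronary cells against endocardial ones, rose by a log2 ratio of 1.41 (0.92 to 1.97) at E13.5 and of 0.95 (0.48 to 1.46) at E14.5 in LatsCKO over control coronary cells. Its fitted log2 change was 1.20 ± 0.23 (SE), with an adjusted p of 0.00829 in edgeR's quasi-likelihood test. Mgll, monoglyceride lipase of the lipid list, stood at 187 CPM in LatsCKO and 81.6 CPM in control coronary cells at E13.5, and at 214 CPM in LatsCKO and 68.3 CPM in control coronary cells at E14.5, a log2 change of 1.43 ± 0.28 (SE) with an adjusted p of 0.00829 by edgeR. Pgf, placental growth factor, a ligand of Flt1, had 33 UMIs in LatsCKO and 4 in control coronary cells at E13.5, and 31 in LatsCKO and 6 in control coronary cells at E14.5, with an adjusted p of 0.0386 by edgeR. AA465934, a non-coding transcript, had 4 UMIs in LatsCKO and 19 in control coronary cells at E13.5, and 0 in LatsCKO and 21 in control coronary cells at E14.5, and was lower in LatsCKO endocardial cells as well (7.39 CPM in LatsCKO against 71.2 CPM in control at E13.5, 9.74 CPM in LatsCKO against 95.2 CPM in control at E14.5). For Igfbp5, Mgll and Pgf the libraries of the genotypes did not overlap, which their choice by the test on the same sums favours. In the test over all 6295 genes their adjusted p-values were 0.20 for Igfbp5, 0.20 for Mgll and 0.34 for Pgf, so these 3 calls rest on the smaller set of genes.

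The genotype ratio reached at least 0.5 log2 units in the same direction at both stages for 158 genes higher (2.74%) and 175 genes lower (3.03%) of 5775. Of 9 YAP target genes with enough UMIs, 2 met this rule upwards (Cyr61 and Ankrd1) and 0 downwards, with medians over the list of 0.44 at the earlier and 0.45 at the later stage, against -0.02 and 0.01 over all genes. Ankrd1 stood at 92.8 CPM in LatsCKO and 35.5 CPM in control coronary cells at E13.5, and at 143 CPM in LatsCKO and 62.4 CPM in control coronary cells at E14.5, with an adjusted p of 0.55 by edgeR. Cyr61, a secreted matricellular protein, stood at 166 CPM in LatsCKO and 95.8 CPM in control coronary cells at E13.5, and at 177 CPM in LatsCKO and 92.1 CPM in control coronary cells at E14.5, with an adjusted p of 0.90 by edgeR. Ctgf stood at 146 CPM in LatsCKO and 49.7 CPM in control coronary cells at E13.5, and at 75.9 CPM in LatsCKO and 56.4 CPM in control coronary cells at E14.5. None of these 3 passed the adjusted test. Without cells holding genes of other types Ctgf turned at E14.5, to 42.2 CPM in LatsCKO and 70.5 CPM in control coronary cells. Of 10 measured Hippo pathway genes, 0 were higher and 1, Yap1, was lower by the same rule, with log2 ratios of -0.96 at the earlier and -0.79 at the later stage.

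Of 15 general endothelial genes 0 passed the 0.5 rule in either direction, a share near that over all genes, and the medians were -0.18 at the earlier and -0.06 at the later stage. Kdr gave a log2 ratio of -0.19 (-0.42 to 0.04) at the earlier and -0.08 (-0.35 to 0.19) at the later stage. In the capillary list, 2 of 8 genes (Meox2 and Mgll) were higher at both stages and 0 lower. Meox2 gave a log2 ratio of 0.57 (0.00 to 1.21) at the earlier and 1.23 (0.42 to 2.16) at the later stage, with an adjusted p of 0.97 by edgeR. At E13.5 Meox2 turned without cells holding genes of other types, to 109 CPM in LatsCKO and 117 CPM in control coronary cells. At E14.5 it then stood at 119 CPM in LatsCKO and 55.4 CPM in control coronary cells. Of 18 G2 and M genes, 2 (Ccnb2 and the kinase Aurka) were higher at both stages and 0 lower. Ccnb2, a mitotic cyclin, stood at 179 CPM in LatsCKO and 99.3 CPM in control coronary cells at E13.5, and at 174 CPM in LatsCKO and 65.4 CPM in control coronary cells at E14.5, with an adjusted p of 0.55 by edgeR. Of 14 S phase genes, 2 (Mcm2 and Mcm7) were lower and 0 higher. The replication helicase gene Mcm2 stood at 111 CPM in LatsCKO and 170 CPM in control coronary cells at E13.5, and at 78.7 CPM in LatsCKO and 169 CPM in control coronary cells at E14.5, with an adjusted p of 0.94 by edgeR. Zeb2, a zinc finger repressor, stood at 16.6 CPM in LatsCKO and 42.6 CPM in control coronary cells at E13.5, and at 19.7 CPM in LatsCKO and 74.3 CPM in control coronary cells at E14.5, with an adjusted p of 0.84 by edgeR.

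Several arterial and sprouting genes gave ratios of opposite sign at the stages, and 0 of 10 measured arterial genes passed the 0.5 rule. Cxcr4, the receptor of Cxcl12, stood at 54.7 CPM in LatsCKO and 103 CPM in control coronary cells at E13.5, and at 59.1 CPM in LatsCKO and 14.9 CPM in control coronary cells at E14.5. Hey1, a target of Notch, stood at 54.7 CPM in LatsCKO and 103 CPM in control coronary cells at E13.5, and at 53.4 CPM in LatsCKO and 20.8 CPM in control coronary cells at E14.5. Igfbp3 gave a log2 ratio of -0.18 (-0.33 to -0.04) at the earlier and 1.40 (1.17 to 1.65) at the later stage. In these 3 genes the E14.5 control library was the lowest of the 4. Nrp2 stood at 313 CPM in LatsCKO and 121 CPM in control coronary cells at E13.5, and at 281 CPM in LatsCKO and 312 CPM in control coronary cells at E14.5, so the low library was there the E13.5 control. Efnb2, an arterial ephrin ligand, was lower in LatsCKO cells at both stages, at 162 CPM against 294 CPM in control cells at E13.5 and 138 CPM against 190 CPM in control cells at E14.5, with an adjusted p of 0.99 by edgeR. With 1 library per group, a genotype effect that differs by stage cannot be told apart from a library that stands apart.

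**Figure D5:**
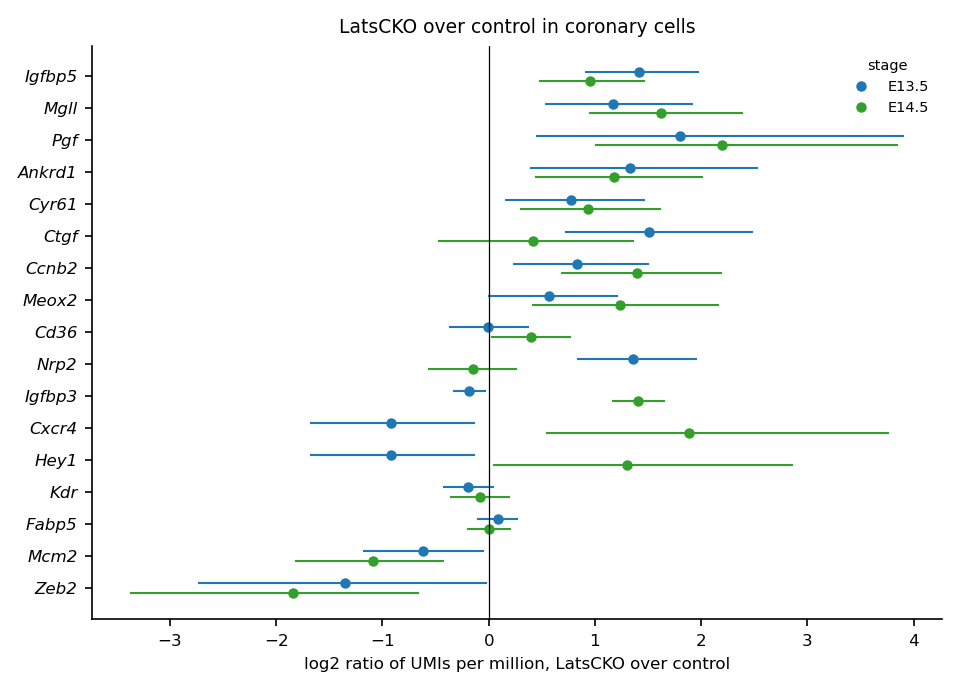
Log2 ratio of CPM in LatsCKO over control coronary cells for 17 genes chosen after their values were seen, at E13.5 (blue) and E14.5 (green), with exact 95% intervals of counting error only. Igfbp5 (1.41 and 0.95), Mgll and Pgf lie above 0 at both stages, Igfbp3 (-0.18 and 1.40), Cxcr4 and Hey1 change side, and Kdr and Fabp5 lie near 0.

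The difference of the genotype effect between coronary and endocardial cells was tested as a class by genotype term in edgeR on 8 sums. Of 9108 genes, 10 (0.11%) had a more positive effect in coronary cells and 0 a more negative one at an adjusted p under 0.05, with 229 and 165 at an unadjusted p under 0.05, and DESeq2 called 0 in either direction. Igfbp5 was among the 10, with a difference of 1.13 ± 0.17 (SE) on the log2 scale and an adjusted p of 3.7e-08 by edgeR. In endocardial cells its log2 ratio of LatsCKO over control was 0.17 at the earlier and -0.07 at the later stage. Its UMIs were spread over 43 of 147 LatsCKO and 13 of 67 control coronary cells at E13.5, and over 39 of 138 LatsCKO and 25 of 117 control coronary cells at E14.5. Without the cells holding genes of other types it stood at 322 CPM in LatsCKO and 133 CPM in control coronary cells at E13.5, and at 365 CPM in LatsCKO and 136 CPM in control coronary cells at E14.5. Cells with endocardial genes were kept in this check, although Igfbp5 was far higher in endocardial cells. Whether endocardial RNA added to these UMIs was not tested. The 9 other genes were Ccnb2, the centromere histone Cenpa, the YAP target Cyr61, the neuropeptide Nts, Bex1, the early response genes Fos and Fosb, and the embryonic haemoglobins Hbb-y and Hba-x.

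Nts stood at 354 CPM in LatsCKO and 319 CPM in control coronary cells at E13.5, and at 326 CPM in LatsCKO and 264 CPM in control coronary cells at E14.5. In endocardial cells it stood at 215 CPM in LatsCKO and 438 CPM in control hearts at E13.5, and at 185 CPM in LatsCKO and 453 CPM in control hearts at E14.5. Its ratio thus lay near 0 in coronary cells (log2 0.15 at E13.5 and 0.30 at E14.5) and below 0 in endocardial cells (-1.03 at E13.5 and -1.29 at E14.5). Cyr61 ran opposite ways in the classes, with endocardial log2 ratios of -0.67 at the earlier and -0.62 at the later stage. The haemoglobins and Fos rested on few cells. In the E14.5 LatsCKO library a single cell held 878 of 965 Hbb-y UMIs, and 85 of 127 Fos UMIs lay in 1 cell. Without cells holding genes of other types in either class, 2 genes passed, Igfbp5 and Nts, and both were among the 10. That check tested 6839 genes. It left out, among others, the 871 of 2229 endocardial cells (39.1%) with at least 2 fibroblast genes. The part of this smaller endocardial class in the lower number of calls was not tested.

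Between the stages, 75 genes (1.19%) rose and 2 (0.0318%) fell at E14.5 against E13.5 in the same edgeR test, with 438 and 307 at an unadjusted p under 0.05. The 8 genes furthest up in both genotypes all encode ribosomal proteins (Rps12, Rpl23a, Rps27a, Rpl17, Rps29, Fau, Rpl28 and Rpl36a), a family with many near-identical copies. Rps12 stood at 1066 CPM in LatsCKO and 1194 CPM in control coronary cells at E14.5, against 18.2 CPM in LatsCKO and 7.10 CPM in control coronary cells at E13.5. In endocardial cells Rps12 stood at 1056 CPM in LatsCKO and 987 CPM in control hearts at E14.5, against 18.0 CPM in LatsCKO and 10.6 CPM in control hearts at E13.5. Cells of 1% or more cardiomyocyte UMIs showed the same order for Rps12, at 715 CPM in LatsCKO and 714 CPM in control hearts at E14.5, against 12.5 CPM in LatsCKO and 7.77 CPM in control hearts at E13.5, and a difference in counting between libraries cannot be told apart from one of stage. Without the genes with copies as defined above, 94 genes (1.79%) rose and 50 (0.954%) fell. Whether copies under unrelated names affected the counts of these genes was not tested. Hmgb2, a chromatin protein of dividing cells, rose by 1.74 ± 0.20 (SE) on the log2 scale in coronary cells, with an adjusted p of 0.00080 by edgeR over all genes, and shifted alike in endocardial cells (486 CPM in LatsCKO and 420 CPM in control hearts at E14.5, 134 CPM in LatsCKO and 140 CPM in control hearts at E13.5). Asb4, a vascular ubiquitin ligase adaptor, fell to 84.4 CPM in LatsCKO and 92.1 CPM in control coronary cells at E14.5, against 200 CPM in LatsCKO and 330 CPM in control coronary cells at E13.5, with an adjusted p of 0.0198 by edgeR, and 0.217 without cells holding genes of other types. The stages also differed in depth, and stage and library cannot be told apart beyond the repeat in both genotypes.

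Stage shifts that differed between coronary and endocardial cells were tested in the same 8 sums, a comparison added after the data were seen: 17 of 9108 genes (0.187%) shifted further up and 5 (0.0549%) further down in coronary cells, and DESeq2 called 0. Without cells holding genes of other types none of these 22 passed, and 1 other gene, Tec, did. That check tested 6839 genes and left out the same endocardial cells as the class by genotype check. Among those further up with all cells were the matrix and fibroblast genes Ptn, Col3a1, Col1a2, Postn and Lum, and the early response genes Fos, Fosb, Jun, Egr1 and Klf2. Ptn, a heparin-binding growth factor, stood at 205 CPM in LatsCKO and 452 CPM in control coronary cells at E14.5, against 66.3 CPM in LatsCKO and 42.6 CPM in control coronary cells at E13.5. At E14.5, 45 of 73 Ptn UMIs in LatsCKO cells and 54 of 152 in control cells lay in 1 cell each. Col3a1, Col1a2, Postn and Lum are themselves part of the summed fibroblast markers given above, so that sum is no separate check of them. Without cells holding genes of other types, Col3a1 had 3 UMIs in LatsCKO and 6 in control coronary cells at E14.5, against 17 in LatsCKO and 2 in control coronary cells at E13.5. Klf2, a factor induced by flow, stood at 146 CPM in LatsCKO and 128 CPM in control coronary cells at E14.5, against 71.2 CPM in LatsCKO and 99.3 CPM in control coronary cells at E13.5, and in endocardial cells at 205 CPM in LatsCKO and 234 CPM in control hearts at E14.5, against 248 CPM in LatsCKO and 443 CPM in control hearts at E13.5. The difference in the Klf2 shift was 1.25 ± 0.27 (SE) on the log2 scale, with an adjusted p of 0.0019 by edgeR, and 0.61 ± 0.35 (SE) with an adjusted p of 0.99 without cells holding genes of other types. Without them Klf2 stood at 111 CPM in LatsCKO and 85.6 CPM in control coronary cells at E14.5, against 85.0 CPM in LatsCKO and 102 CPM in control coronary cells at E13.5.

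Igfbp3 shifted further down in coronary cells than in endocardial cells, by -1.09 ± 0.18 (SE) on the log2 scale with an adjusted p of 9.5e-07 by edgeR, and by -0.78 ± 0.20 (SE) with an adjusted p of 0.15 without cells holding genes of other types. Without them Igfbp3 stood at 1980 CPM in LatsCKO and 755 CPM in control coronary cells at E14.5, against 1861 CPM in LatsCKO and 2136 CPM in control coronary cells at E13.5, so that the lower level at E14.5 was seen in control cells alone. Fbln5 and Eln, both of elastic fibres, also shifted further down. Fbln5 had 3 UMIs in LatsCKO and 0 in control coronary cells at E14.5, against 34 in LatsCKO and 16 in control coronary cells at E13.5, of which 19 of the 34 and 10 of the 16 lay in 1 cell each. Eln stood at 25.3 CPM in LatsCKO and 50.5 CPM in control coronary cells at E14.5, against 77.9 CPM in LatsCKO and 124 CPM in control coronary cells at E13.5, a difference to the endocardial shift of -1.41 ± 0.33 (SE) with an adjusted p of 0.0091 by edgeR. In control cells 11 of 17 Eln UMIs at E14.5 and 30 of 35 at E13.5 lay in 1 cell each, and without cells holding genes of other types control cells had 20.1 CPM at E14.5 and 19.5 CPM at E13.5. By the 0.5 log2 rule in both genotypes, 334 genes (5.95%) were higher and 424 (7.56%) lower at E14.5 of 5612. Of 14 S phase genes, 5 (Mcm4, Mcm6, Rrm2, Gins2 and Dut) were lower and 0 higher by it, and of 12 basement membrane genes 0 passed in either direction. Among 17 early response genes, 5 (Fos, Jun, Egr1, Zfp36 and Klf4) were higher and 1 (Myc) lower, and Fos and Fosb rose in the edgeR test. Without cells holding genes of other types Fos stood at 69.1 CPM in LatsCKO and 136 CPM in control coronary cells at E14.5, against 103 CPM in LatsCKO and 70.3 CPM in control coronary cells at E13.5, with an adjusted p of 0.86 by edgeR.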

How the data were processed

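Drop-seq profiled hearts of both genotypes and stages, in 1 library each. The deposited table holds whole UMI counts per gene and cell made by the authors, and STAR, Picard and the mm10 build are named per the submitters' processing notes, with no versions. No column went unused (0). The design text gives E13.4 where the labels give E13.5, and the labels were used. The library of each cell was taken from its name. The sources used here do not give the tamoxifen schedule or the sex and number of embryos. With 1 library per genotype and stage, the p-values measure no spread between replicate libraries. In the genotype and stage fit they rest on how far the libraries depart from additive terms. In the class tests, which hold a library block, they rest on what the terms leave over.

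The rule for coronary cells and the mirrored endocardial rule were applied to the counts, and UMIs were summed per library. Doublets were not called with a program. Leaving out the 85 cells with mural, epicardial, fibroblast or macrophage genes or over 2% haemoglobin was tried instead. In the class tests endocardial cells were left out by the same criteria. Cells were not left out for cardiomyocyte or endocardial genes. The 22 genes that chose or filtered cells, and mitochondrial genes, were not tested. The members, the gene lists and the rules were chosen with earlier results of these data known. Genotype and stage were tested as additive terms on 4 sums with edgeR 4.0.16 (R 4.3.3), TMM scaling, filterByExpr and the quasi-likelihood test with Benjamini-Hochberg adjustment, which leaves 1 residual degree of freedom. The class by genotype and class by stage terms used 8 sums with a library block, also with 1 residual degree of freedom. DESeq2 1.42.0 was an alternative. Log2 ratios of single libraries used a prior count of 0.5, with exact conditional binomial intervals. Shares have exact Clopper-Pearson intervals, thinning used seed 1, and Python 3.11.15 with numpy 2.4.6, scipy 1.17.1, pandas 2.3.3 and matplotlib 3.10.9 was used. The fits were tested on simulated counts.

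Genes were named by rule: those past the adjusted p of 0.05 in the genotype and class by genotype tests, the 10 highest and 10 lowest by the smaller genotype ratio over stages, the 8 by stage ratio and the 12 by class ratio, with at least 20 UMIs in each pair of sums, the genes of the rule, transgenes and Hippo genes, and examples from 29 gene lists. 1 gene named by the class ratio is not reported here. Others were chosen after their values were seen. Genes under that minimum were not counted as measured. Gene positions are from GENCODE vM21, in which 27573 of 30268 names had 1 locus, and promoter windows from RefSeq GRCm38.p6. A bound at 0 takes 3 UMIs per library.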

Additional observations from a re-analysis of the deposited data

Results flagged for a closer look

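For 10 genes the effect of genotype differed between coronary and endocardial cells in edgeR's quasi-likelihood test of the class by genotype term. The differences, as the log2 ratio of LatsCKO over control in coronary cells minus that in endocardial cells, were 2.38 for Bex1, 2.33 for Fosb, 2.04 for Hbb-y, 1.93 for Hba-x, 1.77 for Fos, 1.51 for Ccnb2, 1.49 for Cyr61, 1.34 for Nts, 1.13 for Igfbp5 and 0.92 for Cenpa. In the E14.5 LatsCKO library 1 coronary cell held 79 of 86 Hba-x UMIs, and 1 held 45 of 61 Fosb UMIs. Bex1 had 49 UMIs in LatsCKO and 5 in control coronary cells at E13.5, and 17 in LatsCKO and 5 in control coronary cells at E14.5. Cenpa stood at 379 CPM in LatsCKO and 273 CPM in control coronary cells at E13.5, and at 318 CPM in LatsCKO and 300 CPM in control coronary cells at E14.5. DESeq2 called none of the 10.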

How the results depend on the processing

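Against 4 genes up and 2 down for genotype, the counts were 2 and 0 without cells holding genes of other types, 1 and 0 with genotype as the only term, 1 and 0 without Apln and Kcne3 in the rule, and 0 and 0 without the 5% of cells with most UMIs or with no filter on low counts. A minimum of 1000 UMIs gave 1 down, as did leaving out genes with copies. Leaving out each library in turn, with genotype as the only term, gave 1 to 91 up and 0 to 24 down, with 91 up without the E14.5 control, 7 up and 24 down without the E13.5 control, 1 up without the E13.5 LatsCKO and 13 down without the E14.5 LatsCKO library. Against 75 genes up and 2 down for stage, DESeq2 called 48 and 0, no filter on low counts gave 11 and 0, the rule without Apln and Kcne3 gave 32 and 0, and cells without the top 5% gave 38 and 0. Down calls for stage numbered 0 without cells holding genes of other types and with stage as the only term, 1 with at least 3 coronary genes, with thinned cells or with 1000 UMIs, and 50 without genes with copies. Leaving out each library, with stage as the only term, gave 73 to 244 up and 9 to 115 down for stage, highest without the E13.5 LatsCKO library. The 10 class by genotype calls became 2 without cells holding genes of other types, 6 without genes with copies and haemoglobin genes, and 0 in DESeq2. The 17 up and 5 down for class by stage became 0 and 0 in DESeq2 and 0 and 1 without cells holding genes of other types. At an unadjusted p under 0.05, edgeR gave 176 up and 128 down for genotype with no filter, 109 and 77 without the top 5%, and 129 and 109 without cells holding genes of other types. DESeq2 gave 16 and 1 for class by genotype, 26 and 5 for class by stage (edgeR 167 and 158 without those cells), and 119 and 19 for stage at that level.

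Of 304 genotype log2 ratios recomputed, 10 whose interval had excluded 0 changed sign, for Hbb-y at E13.5 (0.072 without cells holding genes of other types, 0.64 with thinned cells) and at E14.5 (-1.20 and -0.71), Fos at E14.5 (-0.96 and -0.55), Hba-x at E14.5 (-2.35 and -2.66), Fosb at E14.5 (-0.086 without those cells) and Cyr61 at E13.5 (-0.47 with thinned cells). A further 7 whose interval included 0 changed sign, Rnase4 at E13.5 (1.35, and -0.46 with thinned cells) among them. Of the single-gene values apart from those 10, 364 kept their direction and side of the threshold or moved by less than their interval, 38 were weaker, 7 stronger and 26 moved further. Igfbp5 had a positive genotype effect in all 15 alternatives (0.85 to 1.40) but passed in only 1, the set without genes with copies. Mgll passed in 1 of 15, Pgf in 2 of 14 and Rps13-ps1 in 12 of 14. The causes were not tested. No paired analysis was possible because each group is 1 library and the labels carry no replicate numbers, and the class tests hold the library as a block. Counts of 20 UMIs or fewer limit single genes, and 1 residual degree of freedom limits the calls.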
